A study of Homo sapiens with 4 samples.

Results

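The study was done in A549, a lung cancer cell line of human epithelial origin, with 1 RNA sequencing library for each of 4 groups, and 10 genes of the epithelial-mesenchymal transition (EMT) are described here. They are the transcription factor genes SNAI1, SNAI2, ZEB1 and ZEB2, the cytoskeletal gene VIM, the cadherin genes CDH2 and CDH11, and the secreted-protein genes FN1, TNC and FSTL1. The 10 were taken by symbol from a fixed list, out of 42113 gene models, and every symbol was found in all 4 libraries. That list was chosen with earlier results of these data known. All cells had been infected with a lentivirus for stable expression of a short hairpin RNA (shRNA). The hairpin was a negative control in one line and targeted LIMA1, the gene of the actin-binding protein EPLIN, in the other. Each line was sampled untreated and 24 h after nutlin-3a (10 µM) was added. Nutlin-3a keeps the ubiquitin ligase MDM2 from binding p53, so that p53 accumulates. The labels name no clone, no second hairpin and no replicate culture, so a lasting difference between the lines and an effect of the LIMA1 hairpin cannot be told apart.

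In EMT, epithelial cells loosen their junctions and take on a motile, matrix-producing state. The SNAI and ZEB proteins are zinc-finger repressors that bind E-box sequences in promoters of epithelial genes such as CDH1, which encodes E-cadherin. Vimentin, N-cadherin and fibronectin are the usual markers of the mesenchymal state, and A549 is known as a line with epithelial and mesenchymal traits side by side. MDM2, the target of nutlin-3a, has also been described as a ligase for the SNAI2 protein, which RNA levels do not report on.

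Expression is given in the deposited normalized fragment counts, scaled by a single factor in each library and not by gene length. Libraries held 15.2 to 16.7 M fragments, and 1 fragment was worth 0.943 to 1.07 normalized counts. There was 1 library per group, so there is no replicate error, no test and no p-value, and every difference compares libraries. Differences are between log2(normalized count + 1) values, which understates the change of low genes. Ratios of 2 libraries are given without a pseudocount, with an exact Clopper-Pearson 95% interval. These intervals hold counting error alone, and no molecular identifiers are named for these reads. A gene was measured at a mean of at least 30 normalized counts, which 12742 genes passed, and was called higher or lower where that difference reached 1 in either direction. Of the 10 members 9 were measured, and SNAI2 was not. LIMA1 was at 416 and 866 normalized counts in untreated and nutlin-3a control shRNA cells and at 68.3 and 133 in the libraries labelled LIMA1 shRNA.

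The members spanned a wide range of levels. Per kilobase of the longest transcript in GENCODE 29, VIM averaged 4765 normalized counts over the 4 libraries and FN1 1331. CDH2 (102), ZEB1 (71.8) and FSTL1 (68.1) came next, and ZEB1 and FSTL1 overlapped, with 64.8 to 83.1 and 39.5 to 84.4 per kilobase. SNAI1 averaged 18.3, TNC 7.59, CDH11 4.78, ZEB2 3.31 and SNAI2 3.21 per kilobase. The ranges of TNC (1.30 to 17.4), CDH11 (2.02 to 6.17), ZEB2 (1.55 to 4.47) and SNAI2 (0.776 to 8.39) overlapped. That of SNAI1 (5.09 to 39.1) overlapped all of these but ZEB2. SNAI1 thus lay above ZEB2 in every library, and otherwise these 5 had no order that held in all of them. CDH2 (63.5 to 148) likewise overlapped ZEB1 and FSTL1, and lay below both in nutlin-3a control shRNA cells. At the RNA level A549 was high in vimentin and fibronectin and low in most of the transition factors, with ZEB1 the most abundant of the 4 repressor genes in each library. Part of the epithelial side was present as well. KRT8 and KRT18, the keratins of simple epithelium, stood at 67927 to 82811 and 55419 to 70306 normalized counts, and CDH1 at 2464 to 4154. Of 26 epithelial genes that SNAI and ZEB proteins are known to repress, 15 were measured. EPCAM was at 31.1 to 229, ESRP1 at 0 to 18.9 and GRHL2 at 0 to 1.98 normalized counts, and RAB25 was at 0 in all 4 libraries.

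**Figure D1:**
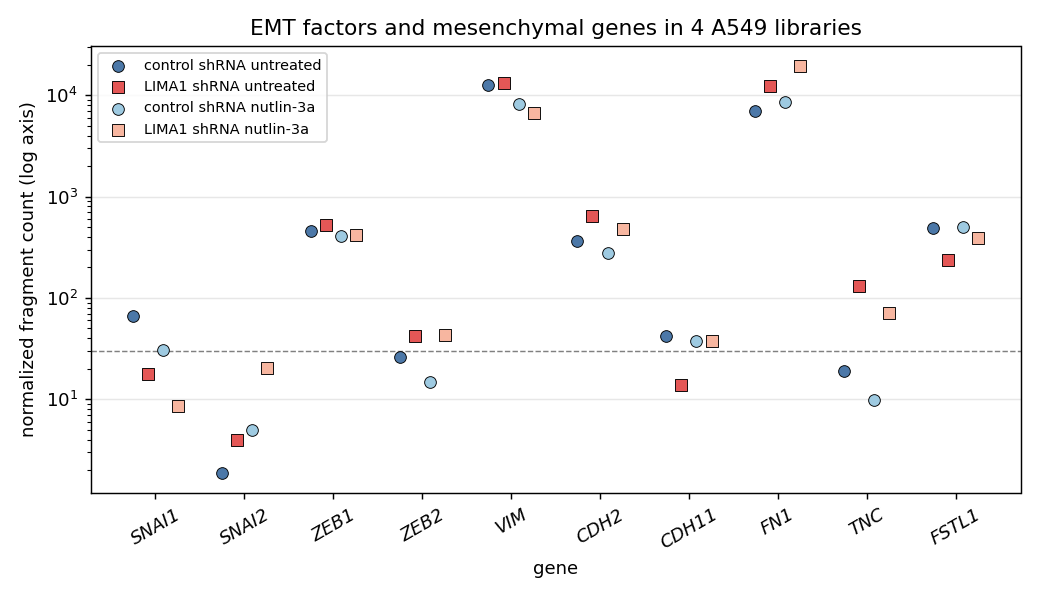
Normalized fragment counts (log axis) of the 10 members in each of the 4 libraries. Circles are control shRNA and squares LIMA1 shRNA cells, dark without and pale with nutlin-3a, and the dashed line marks 30. TNC squares (132.6 and 70.8) lie above its circles (18.9 and 9.93), and SNAI1 squares (17.8 and 8.58) lie below its circles (66.0 and 30.8).

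Promoter sequences from RefSeq (GRCh38.p14, 250 bases before to 50 after each annotated start) were matched for 7 of the 10 members, all but SNAI1, SNAI2 and CDH11, and 5 windows are shown. TNC, FN1 and ZEB2 are shown because they were the members higher in LIMA1 shRNA cells with nutlin-3a, and FSTL1 because it was lower in untreated LIMA1 shRNA cells. The ZEB1 window is shown for its E-boxes. A set of 6 motifs was searched on both strands: the E-box of the SNAI and ZEB proteins (CAGGTG), AP-1 (TGANTCA), TEAD (GGAATG), the cAMP response element CRE (TGACGTCA), a TATA core (TATAA) and a GC-box (GGGCGG). Of 35116 windows of this length, 20.6% hold the E-box, 7.71% AP-1, 14.0% TEAD, 1.85% the CRE, 20.4% the TATA core and 45.0% the GC-box. Capitals mark matches, written 5′ to 3′ on the gene's strand; in these 5 windows matches of different motifs do not overlap.
TNC, chr9:115118108-115118407, minus strand: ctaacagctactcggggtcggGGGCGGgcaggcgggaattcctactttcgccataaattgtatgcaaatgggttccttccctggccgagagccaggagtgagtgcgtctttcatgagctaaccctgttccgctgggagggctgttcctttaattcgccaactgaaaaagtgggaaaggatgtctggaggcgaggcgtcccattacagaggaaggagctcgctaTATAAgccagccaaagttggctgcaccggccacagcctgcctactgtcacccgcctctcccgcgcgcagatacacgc
FN1, chr2:215436019-215436318, minus strand: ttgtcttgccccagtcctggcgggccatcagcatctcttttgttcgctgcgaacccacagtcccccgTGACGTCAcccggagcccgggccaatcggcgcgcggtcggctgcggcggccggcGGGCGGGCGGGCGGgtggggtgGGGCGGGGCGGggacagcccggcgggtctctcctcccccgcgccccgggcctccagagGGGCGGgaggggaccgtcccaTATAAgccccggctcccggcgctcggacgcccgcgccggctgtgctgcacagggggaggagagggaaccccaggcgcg
ZEB2, chr2:144520070-144520369, minus strand: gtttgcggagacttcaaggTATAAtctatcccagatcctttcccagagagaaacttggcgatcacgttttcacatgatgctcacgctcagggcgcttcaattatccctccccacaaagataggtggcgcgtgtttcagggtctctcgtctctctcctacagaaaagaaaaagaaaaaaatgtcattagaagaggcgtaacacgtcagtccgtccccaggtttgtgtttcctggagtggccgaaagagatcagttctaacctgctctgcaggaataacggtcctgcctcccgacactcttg
FSTL1, chr3:120450943-120451242, minus strand: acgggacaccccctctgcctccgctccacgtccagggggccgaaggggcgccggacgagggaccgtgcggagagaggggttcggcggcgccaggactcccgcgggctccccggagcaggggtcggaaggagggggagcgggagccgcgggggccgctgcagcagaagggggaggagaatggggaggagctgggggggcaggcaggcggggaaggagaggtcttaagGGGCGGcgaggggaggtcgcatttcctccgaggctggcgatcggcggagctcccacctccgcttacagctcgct
ZEB1, chr10:31318966-31319265, plus strand: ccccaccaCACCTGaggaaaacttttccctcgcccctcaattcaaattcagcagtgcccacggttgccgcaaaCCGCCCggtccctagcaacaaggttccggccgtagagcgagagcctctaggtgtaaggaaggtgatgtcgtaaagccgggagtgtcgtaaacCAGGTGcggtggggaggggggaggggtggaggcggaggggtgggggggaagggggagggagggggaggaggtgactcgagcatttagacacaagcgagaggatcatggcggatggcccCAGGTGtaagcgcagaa

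The TNC and FN1 windows each hold a TATA core close to the start, beginning at -27 and -28 counted from the start site, with no position 0. FN1 also holds a CRE at -183 and 6 GC-boxes, some of which overlap each other, and TNC 1 GC-box at -229. ZEB2 holds a TATA core at -231 and FSTL1 a GC-box at -24. The E-box was not found in the windows of TNC, FN1, ZEB2, FSTL1, VIM or CDH2. ZEB1, whose RNA differed least, has 7 annotated starts in the table, and the window shown, the richest in E-boxes, holds 3 of them and 1 GC-box. Of the other windows 1 holds a single E-box and 5 hold none. A match is a description of letters, and no match says only that these letters are not in the window.

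SNAI1, the gene of the repressor Snail, was lower in LIMA1 shRNA cells in both treatments. It stood at 66.0 normalized counts in untreated control shRNA cells, 17.8 in untreated LIMA1 shRNA cells, 30.8 in nutlin-3a control shRNA cells and 8.58 in nutlin-3a LIMA1 shRNA cells. In each treatment the LIMA1 shRNA library was the lower one, and the lowest library held 8 fragments against 70 in the highest. Untreated LIMA1 shRNA cells were 3.70-fold lower (2.18 to 6.61), a difference of -1.83. With nutlin-3a the line difference was -1.73, which was 3.59-fold lower (1.61 to 9.03). SNAI1 was also lower with nutlin-3a than without, 2.14-fold in control shRNA cells (1.39 to 3.39) and 2.08-fold in LIMA1 shRNA cells, where the interval of 0.859 to 5.52 included 1. These nutlin-3a differences were -1.08 and -0.97, on either side of the size for a call.

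SNAI2, which encodes Slug, was near the limit of detection. Without nutlin-3a it had 1.89 normalized counts in control and 3.96 in LIMA1 shRNA cells, and with it 4.96 and 20.4, from 2, 4, 5 and 19 fragments. Only the nutlin-3a LIMA1 shRNA library stood clear of the others. It was 4.10-fold above nutlin-3a control shRNA cells (1.48 to 14.1) and 5.15-fold above untreated LIMA1 shRNA cells (1.71 to 20.8). Without nutlin-3a the ratio of the lines was 2.10 with an interval of 0.301 to 23.2, so no line difference was detectable at this depth.

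ZEB1 was the steadiest of the 10 genes. It had 457 normalized counts in untreated control and 520 in untreated LIMA1 shRNA cells, and 406 and 416 with nutlin-3a. The highest library was 1.28-fold above the lowest. With nutlin-3a it was lower by 0.17 in control and 0.32 in LIMA1 shRNA cells, in log2 units, and the lines differed by 0.19 untreated and 0.03 with nutlin-3a. The last difference changed sign after equal-total scaling (-0.014).

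ZEB2, a close relative of ZEB1, was higher in LIMA1 shRNA cells. Its values were 26.4 normalized counts in untreated control, 42.5 in untreated LIMA1, 14.9 in nutlin-3a control and 42.9 in nutlin-3a LIMA1 shRNA cells. Both LIMA1 shRNA libraries were above both control libraries, and they were alike (a ratio of 1.01, 0.639 to 1.59). With nutlin-3a the line ratio was 2.88 (1.56 to 5.61), a difference of 1.47. Without it the ratio was 1.61, with an interval of 0.979 to 2.69 that included 1. The nutlin-3a response was -0.79 in control shRNA cells and 0.01 in LIMA1 shRNA cells.

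The cadherins went different ways. CDH2 encodes N-cadherin, whose gain is the classical counterpart of E-cadherin loss. It had 369 normalized counts in untreated control, 639 in untreated LIMA1, 275 in nutlin-3a control and 483 in nutlin-3a LIMA1 shRNA cells. Both LIMA1 shRNA values were above both control values, by 1.73-fold untreated (1.53 to 1.97) and 1.76-fold with nutlin-3a (1.51 to 2.05). These differences of 0.79 and 0.81 were under the size for a call. CDH2 was lower with nutlin-3a in each line, with differences of -0.42 and -0.40.

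CDH11, the mesenchymal cadherin first described in osteoblasts, was low in a single library. It had 42.4 normalized counts in untreated control, 13.9 in untreated LIMA1, 37.7 in nutlin-3a control and 37.5 in nutlin-3a LIMA1 shRNA cells. Untreated LIMA1 shRNA cells were 3.06-fold below untreated control cells (1.65 to 6.04), a difference of -1.55. With nutlin-3a the line ratio was 0.995 (0.610 to 1.62). The nutlin-3a difference was 1.37 in LIMA1 shRNA cells and -0.17 in control shRNA cells. The response difference of 1.54 was a ratio of ratios of 3.05 (1.38 to 7.03, from the 2 exact intervals combined). This is the only measured member whose response difference reached 1. It rests on the 14 fragments of the untreated LIMA1 shRNA library, since the other 3 libraries held 35 to 45.

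VIM, the gene of the intermediate filament protein vimentin, differed more with the treatment than between the lines. It had 12626 normalized counts in untreated control, 13151 in untreated LIMA1, 8213 in nutlin-3a control and 6705 in nutlin-3a LIMA1 shRNA cells. Both nutlin-3a libraries were below both untreated ones. With nutlin-3a VIM was 1.54-fold lower in control shRNA cells (1.5 to 1.58) and 1.96-fold lower in LIMA1 shRNA cells (1.90 to 2.02). With upper-quartile scaling the log2 differences left their counting intervals, from -0.62 to -0.52 in control and from -0.97 to -0.89 in LIMA1 shRNA cells. Between the lines the differences were 0.06 untreated and -0.29 with nutlin-3a. The antisense model VIM-AS1 was at 32.8 to 49.7 normalized counts. The sources used here do not say whether counting used strand, so reads of VIM and VIM-AS1, and of ZEB1 and ZEB1-AS1, cannot be told apart.

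FN1 encodes fibronectin, the matrix glycoprotein that integrins bind. It had 7030 normalized counts in untreated control, 12371 in untreated LIMA1, 8645 in nutlin-3a control and 19376 in nutlin-3a LIMA1 shRNA cells. Both LIMA1 shRNA libraries were above both control libraries. The ratio of the lines was 1.76 untreated (1.71 to 1.81) and 2.24 with nutlin-3a (2.18 to 2.30), differences of 0.82 and 1.16. Nutlin-3a cells were above untreated cells by 0.30 with control shRNA and 0.65 with LIMA1 shRNA, and FN1 and FSTL1 were the measured members above 0 in both responses.

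TNC showed the widest spread of the 9 measured members. It encodes tenascin-C, a matrix protein of embryonic tissue, wounds and tumour stroma. TNC was at 18.9 normalized counts in untreated control, 132.6 in untreated LIMA1, 9.93 in nutlin-3a control and 70.8 in nutlin-3a LIMA1 shRNA cells. Both LIMA1 shRNA libraries, with 134 and 66 fragments, lay far above both control libraries, with 20 and 10. LIMA1 shRNA cells were 7.03-fold higher untreated (4.38 to 11.9) and 7.13-fold higher with nutlin-3a (3.64 to 15.5). The differences of 2.75 and 2.72 were the 16th and 15th highest of the 12742 measured genes. With nutlin-3a TNC was lower by 0.86 in control shRNA cells, where the interval of the ratio (0.220 to 1.18) included 1. In LIMA1 shRNA cells it was lower by 0.90 (ratio 0.534, 0.391 to 0.722).

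FSTL1, which encodes a secreted glycoprotein of mesenchymal cells that binds ligands of the TGF-beta superfamily, was on the low side in LIMA1 shRNA cells. It had 490 normalized counts in untreated control, 234.5 in untreated LIMA1, 501 in nutlin-3a control and 392 in nutlin-3a LIMA1 shRNA cells. Untreated LIMA1 shRNA cells were 2.09-fold lower (1.79 to 2.45) and nutlin-3a LIMA1 shRNA cells 1.28-fold lower (1.11 to 1.47), differences of -1.06 and -0.35. The nutlin-3a difference was 0.03 in control shRNA cells and 0.74 in LIMA1 shRNA cells, a response difference of 0.71 (ratio of ratios 1.64, 1.33 to 2.02).

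**Figure D2:**
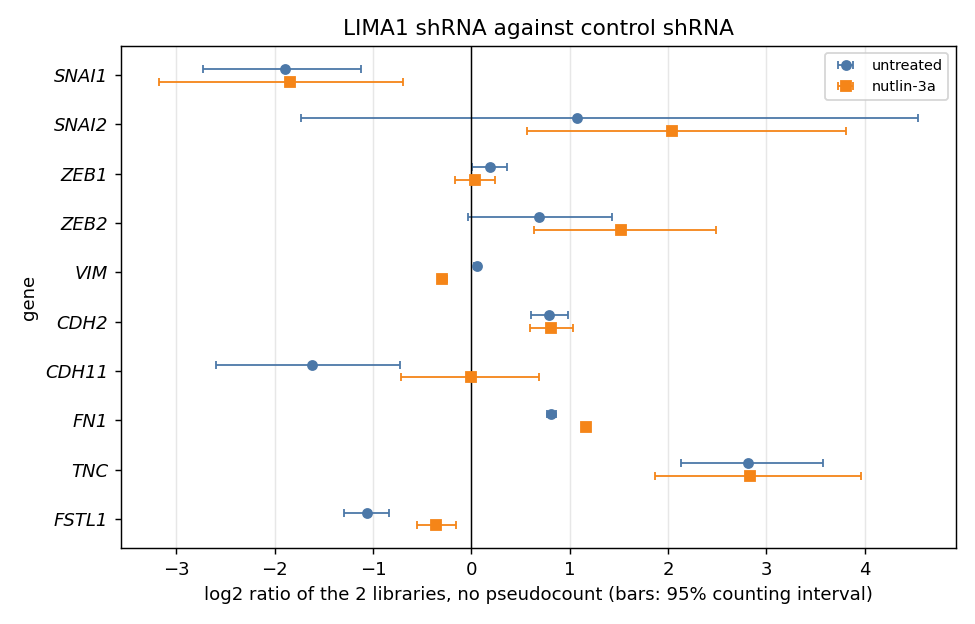
Log2 ratio of LIMA1 shRNA to control shRNA cells for the 10 members, untreated (circles) and with nutlin-3a (squares). Bars are 95% counting intervals and hold no variation between cultures. TNC, FN1 and CDH2 lie right of 0 and SNAI1 and FSTL1 left of 0 in both treatments, while CDH11 is clearly left of 0 only untreated. The points of ZEB2, SNAI2 and ZEB1 also lie right of 0, with bars that reach 0 untreated for ZEB2 and SNAI2 and with nutlin-3a for ZEB1.

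Read together, the line comparison split the members. In untreated cells 1 of 9 measured members was higher (TNC) and 3 were lower (SNAI1, CDH11 and FSTL1). Over all measured genes 1.04% were higher and 2.05% lower by this size. With nutlin-3a 3 members were higher (TNC, ZEB2 and FN1), beside 1.26% of all genes, and 1 was lower (SNAI1), beside 1.94%. The members were chosen with earlier results of these data known, so these counts and shares are a description and no test of the set. Medians over the 9 members were 0.19 untreated and 0.03 with nutlin-3a, against 0.02 and 0.03 over all genes, so the members did not move one way. The 2 line differences share no library, and 8 of the 9 members had the same sign in both, 5 above and 3 below 0. The same held for 72.2% of all measured genes. VIM was the exception, at 0.06 and -0.29. Some of the 8 shared signs were not resolved. The interval of the ratio included 1 with nutlin-3a for CDH11 (-1.55 and -0.01) and ZEB1 (0.19 and 0.03), and untreated for ZEB2.

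Several of these calls were at low genes, where calls were more common. SNAI1, ZEB2, CDH11 and TNC had means of 30.8 to 58.0 normalized counts. TNC and ZEB2 were under 30 in both control shRNA libraries, and SNAI1 was under 30 in both LIMA1 shRNA libraries. These genes passed the filter through the line where they were high, so being measured was not independent of the line difference. Among the 1118 measured genes with a mean under 60, 5.19% were higher and 9.66% lower in untreated LIMA1 shRNA cells, and 5.9% and 8.77% with nutlin-3a. With a pseudocount of 30, TNC stayed past the size at 1.73 and 1.34 and SNAI1 stayed so only untreated (-1.01), while ZEB2 was at 0.70 and CDH11 at -0.72. FSTL1, which is not a low gene, was just short of the size untreated (-0.98). FN1, with 7458 to 18075 fragments a library, was at 1.16 with either pseudocount.

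**Figure D3:**
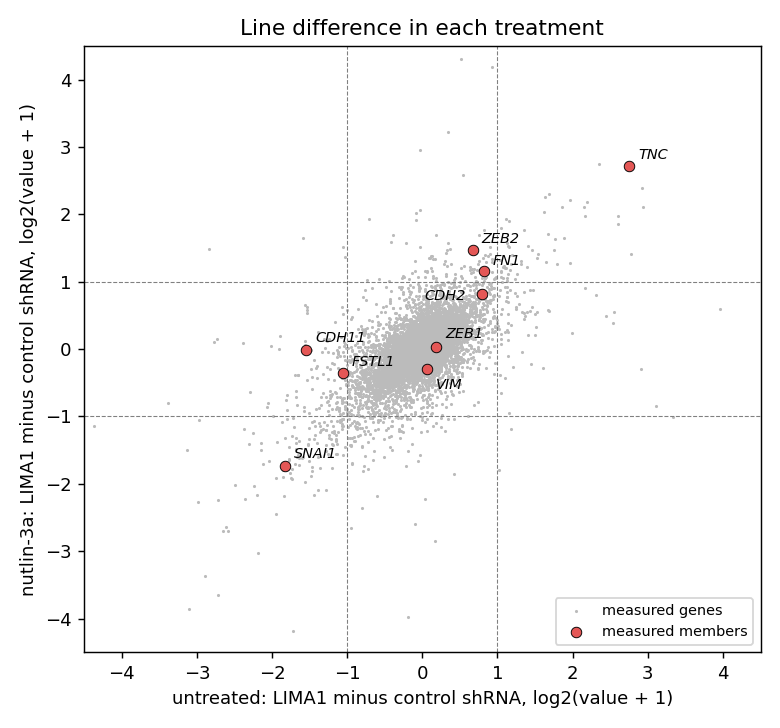
Each point is 1 of 12742 measured genes, placed by its LIMA1 shRNA minus control shRNA difference in untreated (x) and nutlin-3a (y) cells on the log2(normalized count + 1) scale, with the 9 measured members in red. Dashed lines mark 1 and -1, and 30 genes lie outside the plotted range. TNC (2.75, 2.72) lies at the upper right, SNAI1 (-1.83, -1.73) at the lower left and CDH11 (-1.55, -0.01) left of most genes.

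With nutlin-3a 7 of 9 members were below 0 in control shRNA cells, and 5 of 9 in LIMA1 shRNA cells, beside 51.5% of all measured genes in each line. In control shRNA cells SNAI1 alone was lower by at least 1, as were 5.64% of all measured genes and 7.69% of those with a mean under 60. None of the 9 was higher by this size, beside 5.54% and 15.7%. In LIMA1 shRNA cells CDH11 alone was higher by at least 1, beside 7.29% of all measured genes and 20.5% of those with a mean under 60. None was lower by this size, beside 6.08% and 6.62%. Each nutlin-3a count thus rests on 1 low gene in a background of many calls. SNAI1 passed the filter narrowly, with a mean of 30.8 normalized counts. It was highest in untreated control shRNA cells (66.0), the baseline of its nutlin-3a call. For SNAI1, being measured was therefore not independent of this nutlin-3a difference either, and its call is a description only. Medians were -0.42 and -0.32, against -0.017 and -0.022 over all genes. The 2 responses share no library, and 7 of 9 members had the same sign in both. SNAI1, ZEB1, VIM, CDH2 and TNC were below 0 in each line and FN1 and FSTL1 above it, and 86.0% of all genes had the same sign. The interval of the ratio included 1 for ZEB1, TNC and FSTL1 in control and for SNAI1 in LIMA1 shRNA cells. CDKN1A, a target gene of p53 that codes for p21, was 32.0-fold and 40.9-fold higher in the same pairs of libraries, and MDM2 was higher by 3.90 and 4.19 on the log2 scale. The measured members' responses, at most 2.71-fold higher and 2.14-fold lower, were small beside these. For the response difference, 1 of 9 members (CDH11) was past the size, beside 1.27% of all genes and 8.23% of those with a mean under 60. None was past it on the low side, beside 0.816% and 4.74%.

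**Figure D4:**
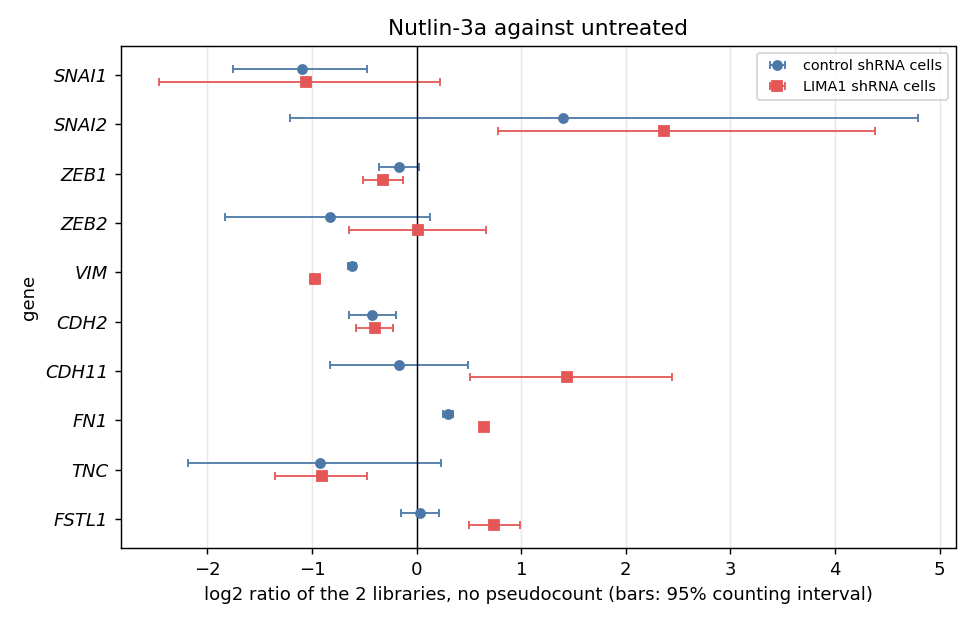
Log2 ratio of nutlin-3a to untreated cells for the 10 members, in control shRNA (circles) and LIMA1 shRNA cells (squares), with 95% counting intervals that hold no variation between cultures. The points of VIM, CDH2, TNC, ZEB1 and SNAI1 lie left of 0 and those of FN1 right of 0 in both lines. Bars reach 0 for TNC and ZEB1 in control shRNA cells and for SNAI1 in LIMA1 shRNA cells. CDH11, FSTL1 and SNAI2, which was not measured, lie clearly right of 0 only in LIMA1 shRNA cells.

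The line difference was also read against transcript length. The members higher in LIMA1 shRNA cells with nutlin-3a have long transcripts (TNC 7.64, FN1 8.90 and ZEB2 9.58 kb) and SNAI1 has the shortest of the 10 (1.69 kb). CDH11 (6.87 kb) and FSTL1 (5.94 kb) have long transcripts too and were lower in untreated LIMA1 shRNA cells. Over all measured genes with a length, the median line difference was -0.029 for transcripts under 2 kb and 0.092 for those of at least 7 kb in untreated cells, and -0.023 and 0.12 with nutlin-3a. After the median of genes in the same of 10 length classes was subtracted, TNC was at 2.68 and 2.63, ZEB2 at 0.57 and 1.33, FN1 at 0.72 and 1.03 and SNAI1 at -1.81 and -1.71. CDH11 was then at -1.62 and -0.09 and FSTL1 at -1.13 and -0.43, further below 0 than before. The same 3 members were thus past the size on the high side with nutlin-3a, and the same 3 on the low side untreated. FN1 left its counting interval in both treatments, from 0.82 to 0.72 and from 1.16 to 1.03. The subtraction was added after the data were seen, and the part of length in these differences was not tested.

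**Figure D5:**
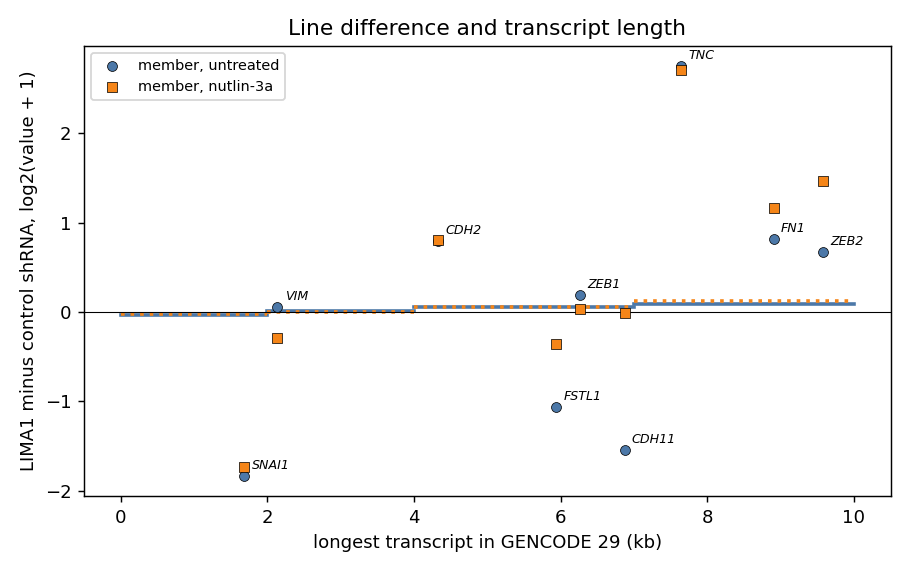
LIMA1 shRNA minus control shRNA difference of the 9 measured members, on the log2(normalized count + 1) scale, against the length of the longest transcript, untreated (circles) and with nutlin-3a (squares). Solid (untreated) and dotted (nutlin-3a) steps are medians of the measured genes with a known length in 4 ranges of length, from -0.029 to 0.12.

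Other genes of the pathway were read from lists that were drawn up beside the members. Of 15 other EMT factor genes 8 were measured, among them TWIST2, TCF3 and SOX9, and none differed by 1 between the lines (medians 0.14 untreated and 0.13 with nutlin-3a). Of all measured genes 1.04% were higher and 2.05% lower untreated, and 1.26% and 1.94% with nutlin-3a, so none of 8 says little. HMGA2, a chromatin architecture factor, was the only measured gene of that list past the size with nutlin-3a, at -1.05 in control and -1.33 in LIMA1 shRNA cells. Lower by this size were 5.64% and 6.08% of all measured genes, and 5.54% and 7.29% were higher. TWIST1 was under the level for measurement, with 24.5 normalized counts in control and 18.8 in LIMA1 shRNA cells untreated, and 18.9 and 9.65 with nutlin-3a.

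Of 35 other mesenchymal and matrix genes 25 were measured. Between the lines CDH6, a cadherin of kidney and other developing epithelia, was higher untreated (1.12; 451 against 206 normalized counts), and FBN1, which encodes fibrillin, was higher with nutlin-3a (1.17; 844 against 375). Of all measured genes 1.04% were higher untreated and 1.26% with nutlin-3a. None of the list was lower by 1, beside 2.05% and 1.94%, and its medians were 0.10 and 0.13. With nutlin-3a 4 of 25 genes were higher in each line, beside 5.54% and 7.29% of all measured genes in control and LIMA1 shRNA cells, and 0 were lower, beside 5.64% and 6.08%. The genes were not all the same ones: MMP2, a matrix metalloproteinase gene, was past the size in control (1.29 against 0.82) and AXL, a receptor kinase gene, in LIMA1 shRNA cells (1.05 against 0.94). ACTA2, the smooth muscle actin gene, differed most, by 4.25 in control shRNA cells (118 to 2271 normalized counts) and 4.53 in LIMA1 shRNA cells (82.1 to 1915). FBN1 was higher by 1.82 and 2.25. Other members of the list were on the low side in both lines, such as TAGLN, a smooth muscle gene (-0.50 and -0.32), the fibulin gene FBLN1 (-0.82 and -0.69) and the thrombospondin gene THBS1 (-0.64 and -0.82). The list's medians with nutlin-3a were 0.17 and 0.29.

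Of the 26 epithelial genes that SNAI and ZEB proteins are known to repress, 15 were measured. EPCAM, an epithelial adhesion molecule gene, was the 1 of 15 lower in LIMA1 shRNA cells, by 1.47 untreated and by 1.81 with nutlin-3a, beside 2.05% and 1.94% of all measured genes. None was higher by 1, beside 1.04% and 1.26% of all measured genes. The keratin gene KRT19 (0.69 and 0.77) and the desmoplakin gene DSP (0.54 and 0.78) were on the high side in both treatments. The list's medians between the lines were -0.04 untreated and 0.06 with nutlin-3a, with 6 and 10 of the 15 above 0. CDH1 had 2603 normalized counts in untreated control, 2464 in untreated LIMA1, 3931 in nutlin-3a control and 4154 in nutlin-3a LIMA1 shRNA cells. Its nutlin-3a differences were 0.59 and 0.75, and its line differences -0.08 and 0.08. With nutlin-3a 1 of 15 was higher and 1 lower in control shRNA cells, and 2 and 1 in LIMA1 shRNA cells, beside 5.54% and 5.64%, and 7.29% and 6.08%, of all measured genes. KRT19 was higher in both lines (1.42 and 1.5), CLDN4, a claudin gene, in LIMA1 shRNA cells (1.33), and EPCAM lower in both (-1.04 and -1.37).

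Ligands, receptors and effectors of TGF-beta, the best known inducer of EMT, had 0 of 25 measured genes past the size between the lines in either treatment. Of all measured genes 1.04% were higher and 2.05% lower untreated, and 1.26% and 1.94% with nutlin-3a, so 0 of 25 says little. The receptor gene TGFBR1 came nearest to the size, with 996 normalized counts in control and 503 in LIMA1 shRNA cells untreated (-0.99), and 1504 and 1070 with nutlin-3a (-0.49). The ligand gene TGFB1 was at -0.36 and -0.29 and the receptor gene TGFBR2 at 0.52 and 0.45 between the lines, untreated and with nutlin-3a. With nutlin-3a 1 of 25 was higher in control and 3 in LIMA1 shRNA cells, and none was lower. Of all measured genes 5.54% and 7.29% were higher and 5.64% and 6.08% lower. The latent TGF-beta binding protein gene LTBP2 was higher by 1.83 and 2.15 in control and LIMA1 shRNA cells, and TGFBR1 by 1.09 in LIMA1 shRNA cells. TGFB1 itself was at -0.73 and -0.65. Receptors of fibronectin and tenascin-C had medians of 0.17 and 0.27 between the lines, with 0 of 13 past the size. The shares of all measured genes are those given for TGF-beta. ITGA5, the alpha subunit of the main fibronectin receptor, was at 0.73 and 0.75. With nutlin-3a 2 of 13 were higher in control and 3 in LIMA1 shRNA cells, against the same 5.54% and 7.29%. The integrin gene ITGA3 (1.02 and 1.37) and the heparan sulfate proteoglycan gene SDC4 (1.01 and 1.38) were so in both lines.

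Most markers of other cell types were low, with CD68, a lysosomal protein gene used as a macrophage marker, as the main exception. Of 9 fibroblast markers only COL1A1 was measured; COL1A2 and FAP were at 0 in all 4 libraries, and DCN had 1 fragment in untreated control cells and 0 elsewhere. The summed level of the 9 was 145 normalized counts in untreated control, 77.2 in untreated LIMA1, 66.5 in nutlin-3a control and 33.2 in nutlin-3a LIMA1 shRNA cells. As for SNAI1, the highest library was untreated control and the lowest nutlin-3a LIMA1 shRNA cells. Whether any fibroblasts were present, or had a part in the SNAI1 result, was not tested. COL1A1 ran from 70.7 down to 19.3 and LUM from 51.8 to 10.7. None of the 5 endothelial markers was measured, and they summed to 3.22 to 12.9. Of 6 leukocyte markers only CD14 (65.4 to 105.2 normalized counts) and CD68 (613 to 897) were measured; CD3E and MS4A1 were at 0, PTPRC was at 0.943 or 0, and the 6 summed to 711 to 1006. The 9 epithelial markers of A549 were all measured. In bulk RNA, fewer cells with a transcript and less transcript per cell cannot be told apart.

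Genes with the most similar profile were sought for the members that reached a difference of 1, by Euclidean distance over the 4 libraries among 10005 genes with a mean of at least 150. With 4 points many genes lie close, and likeness is a description. FN1 lay nearest to TCN1 (0.0816 log2 units) and FAT1 (0.111), an atypical cadherin gene. FSTL1 lay nearest to ASS1 (0.172) and HS6ST1 (0.174), and CDH11 to DHRS4-AS1 (0.240) and FSTL1 (0.475). ZEB2 lay nearest to CDCP1 (0.237) and PLEKHA7 (0.362). SNAI1 and TNC had no close neighbour among these genes. LEPREL2 (0.596) and VIL1 (0.694) lay nearest to SNAI1 and PTBP2 (1.02) and DAAM2 (1.19) nearest to TNC. Genes as low as SNAI1 (mean 30.8) and TNC (58.0) were not in the pool, so closer ones among them were not sought.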

How the data were processed

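Gene levels were read from 4 libraries, 1 per group, grouped by sample title. The labels' titles write si where the protocols write shRNA. Per the submitters' processing notes, the build was hg19 and the tools were bcl2fastq 1.8.3, Bowtie2 2.0.12 and Cuffnorm 2.2.1, listed without roles; the annotation is not known here. What the authors deposited is a normalized signal for each gene, which its steps show to be fragment counts scaled by one factor in each library. Between 0.5 and 1000 fragments 85.5% to 86.3% of values lay within 0.1 of a whole number, under the 95% required, so no count test was run. Members in that range were whole. VIM and FN1 lay above it, and VIM was not whole in every library (13395.3 fragments in untreated control shRNA cells). Fragments were rounded to whole numbers for the intervals. Differences used log2(value + 1), a mean of at least 30 and a size of 1. Intervals are exact Clopper-Pearson (95%); those of response differences combine 2 of them by the MOVER rule. They cover counting error only. The calling step was tested on simulated data. Lengths are of the longest GENCODE 29 transcript, on another build than hg19, known for 89.7% of measured genes.

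Named are all members, LIMA1, MDM2 and CDKN1A as checks, CDH1, TGFB1, TGFBR2, up to 2 genes per list, direction and contrast past the size, and 2 nearest profiles per member past it; other names were chosen after their values were seen, as was the TATA core. A gene that this rule names is not reported here. The members and lists were chosen with earlier results of these data known. Alternatives were 8 planned settings and 1 added after seeing the data. Python 3.11.15, numpy 2.4.6, pandas 2.3.3, scipy 1.17.1 and matplotlib 3.10.9 were used.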

Additional observations from a re-analysis of the deposited data

Results flagged for a closer look

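For 3 members, differences were of opposite sign in the 2 lines or the 2 treatments; with 1 library per group these were not tested. The nutlin-3a difference of CDH11 was -0.17 in control and 1.37 in LIMA1 shRNA cells, 1.54 apart. That of ZEB2 was -0.79 and 0.01, 0.80 apart, with an interval of the ratio of ratios (0.800 to 4.12) that included 1; the value of 0.01 became -0.035 after subtraction of the median of genes of like length. The line difference of VIM was 0.06 untreated and -0.29 with nutlin-3a, -0.35 apart, and its untreated value was 0.011 after equal-total scaling.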

How the results depend on the processing

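Counts of members past the size rest on few genes, and the cause of each change was not tested unless the setting itself shows it. With nutlin-3a in control shRNA cells, 1 lower member became 0 with pseudocounts of 5 and 30, upper-quartile scaling, a mean of at least 150 or a log2 size of 2, and 4 with a size of 1.5-fold. There 0 higher members became 1 without a filter, which admits SNAI2. In LIMA1 shRNA cells 1 higher member became 0 with a pseudocount of 30, a mean of at least 150 or a size of 2, 2 without a filter and 3 with a size of 1.5-fold, which also gave 3 lower members in place of 0. Between untreated lines 3 lower members became 1 with a pseudocount of 30 or a mean of at least 150 and 0 with a size of 2; 1 higher member became 0 with a mean of at least 150 and 4 with a size of 1.5-fold. With nutlin-3a 3 higher members became 2 with a pseudocount of 30, 4 without a filter or with a size of 1.5-fold and 1 with a mean of at least 150 or a size of 2, and 1 lower member became 0 under the last pair and a pseudocount of 30. For the response difference 1 higher member became 0 with a pseudocount of 30, a mean of at least 150 or a size of 2, 2 without a filter and 3 with a size of 1.5-fold. No called value changed sign under the scalings, pseudocounts and length setting. Of 45 member differences, 41 stayed within their counting interval under each scaling, 45 and 42 with pseudocounts of 5 and 30, and 39 after the length subtraction, which was chosen after seeing the data. The small ZEB1 line difference with nutlin-3a (0.03) was -0.014 with equal-total scaling and -0.047 after that subtraction. No paired analysis was possible because each group has 1 library, and for the same reason no library could be left out. Depth limits SNAI2, SNAI1, CDH11, ZEB2 and TNC, with 2 to 134 fragments.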

Other observations

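The microRNA genes best known for acting on these members were listed at 0 in all 4 libraries. These are the rows of MIR200A, MIR200B, MIR200C, MIR141 and MIR429, whose family targets ZEB1 and ZEB2, and of MIR34A, a p53 target gene whose product acts on SNAI1. The precursor rows are short and the mature forms were not measured in these libraries, so nothing can be read from them about the microRNAs. The antisense model ZEB1-AS1, whose start lies beside that of ZEB1, had 52.8 normalized counts in untreated control, 55.1 in untreated LIMA1, 49.1 in nutlin-3a control and 68.6 in nutlin-3a LIMA1 shRNA cells.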
